A study of Mus musculus with 9 samples.

Results

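The 10 genes described here encode enzymes and a chaperone that turn newly made collagen chains into crosslinked fibrils. They are the lysyl oxidases Lox, Loxl1, Loxl2 and Loxl3, the collagen chaperone Serpinh1, the prolyl 4-hydroxylase alpha subunits P4ha1, P4ha2 and P4ha3, and the lysyl hydroxylases Plod1 and Plod2. They were chosen by name and found through their Ensembl gene IDs, which gave 10 rows of a table of 38293 genes. RNA was sequenced from the left ventricle of 9 male C57BL/6 mice aged 8 weeks, with 3 mice per group. Ischemia-reperfusion (I/R) mice had the left anterior descending artery tied for 1 hour and then released, and the infarcted region was taken at 14 days or at 1 day. The third group was sham-operated, with a collection time that the labels do not give and tissue labelled as the same region. The mice carried no stated transgene or drug. Columns of the 14-day group carry the same header, so A, B and C only tell its libraries apart, while the 1-day mice are 4, 5 and 6 and the sham mice 1, 2 and 3.

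Collagen is matured in steps. In the endoplasmic reticulum (ER), prolyl 4-hydroxylase, a tetramer of alpha subunits and the beta subunit P4hb, hydroxylates prolines so that the triple helix is stable. Lysyl hydroxylases modify lysines, and those modified by Plod2 in the telopeptides, the short ends beside the helix, give the more stable crosslinks. Serpinh1 (also called HSP47) binds the folded procollagen helix until it leaves the ER. Outside the cell, copper-dependent lysyl oxidases convert lysines and hydroxylysines to aldehydes that crosslink collagen and elastin. Fibroblasts are the main source of fibrillar collagen in the heart, and scar tissue that replaces lost cardiomyocytes depends on these crosslinks for strength.

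The libraries held 20215781 to 36816818 counts, of which 7217019 to 15969149 lay outside ribosomal RNA genes. Levels are counts-per-million (CPM) of the scaled library. Of 6 cardiomyocyte markers, the summed level was 13352 to 18267 CPM at 14 days, 7023 to 13167 CPM at 1 day and 18758 to 20948 CPM in sham, while 3 atrial markers summed to at most 1.21 CPM in any library, with no count of Sln in the 1-day and sham groups. Libraries stood apart inside each group. In the 14-day group, library C had the highest level of 9 of the 10 genes and library A the lowest of 9. Mouse 6 had the lowest level of 7 of the 10 in the 1-day group. Sham mouse 1 had the highest level of 6 of them.

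Against sham, 6 of the 10 genes rose at 14 days and 0 fell (edgeR quasi-likelihood test, Benjamini-Hochberg adjusted p under 0.05), where 8.75% of 14124 tested genes rose and 5.64% fell (14.4% in all). At an unadjusted p under 0.05, 1 was lower at 14 days, and DESeq2 and limma-voom called 0 lower. In the 1-day comparison 7 rose and 1 fell, where 29.4% of tested genes rose and 24.8% fell (54.2% in all). Between 14 days and 1 day, 1 was higher and 2 were lower at 14 days, where 25.1% of tested genes were higher and 26.8% lower (51.9% in all). The median log2 fold of the 10 was 0.85 at 14 days and 0.95 at 1 day, beside 0.01 and 0.04 over all tested genes. All 10 passed the filter on low counts, but P4ha3 passed only through the I/R libraries, so its calls against sham carry no weight. Without P4ha3, 5 of 9 rose at 14 days and 6 of 9 rose at 1 day, with medians of 0.58 and 0.92. The other counts against sham given here include it. With total count only as scaling, 8 rose and 0 fell at 1 day, and 0 were higher and 3 lower at 14 days than at 1 day. The 14-day count fell when single libraries were left out. It was 2 without sham mouse 2 and 3 without library C. Calls over all tested genes fell as well, from 1236 higher and 797 lower to 314 and 164 without sham mouse 2. Without library C they were 498 and 277. Both comparisons share the sham libraries. In ventricle tissue, fewer cells of a type and less RNA per cell cannot be told apart.

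**Figure D1:**
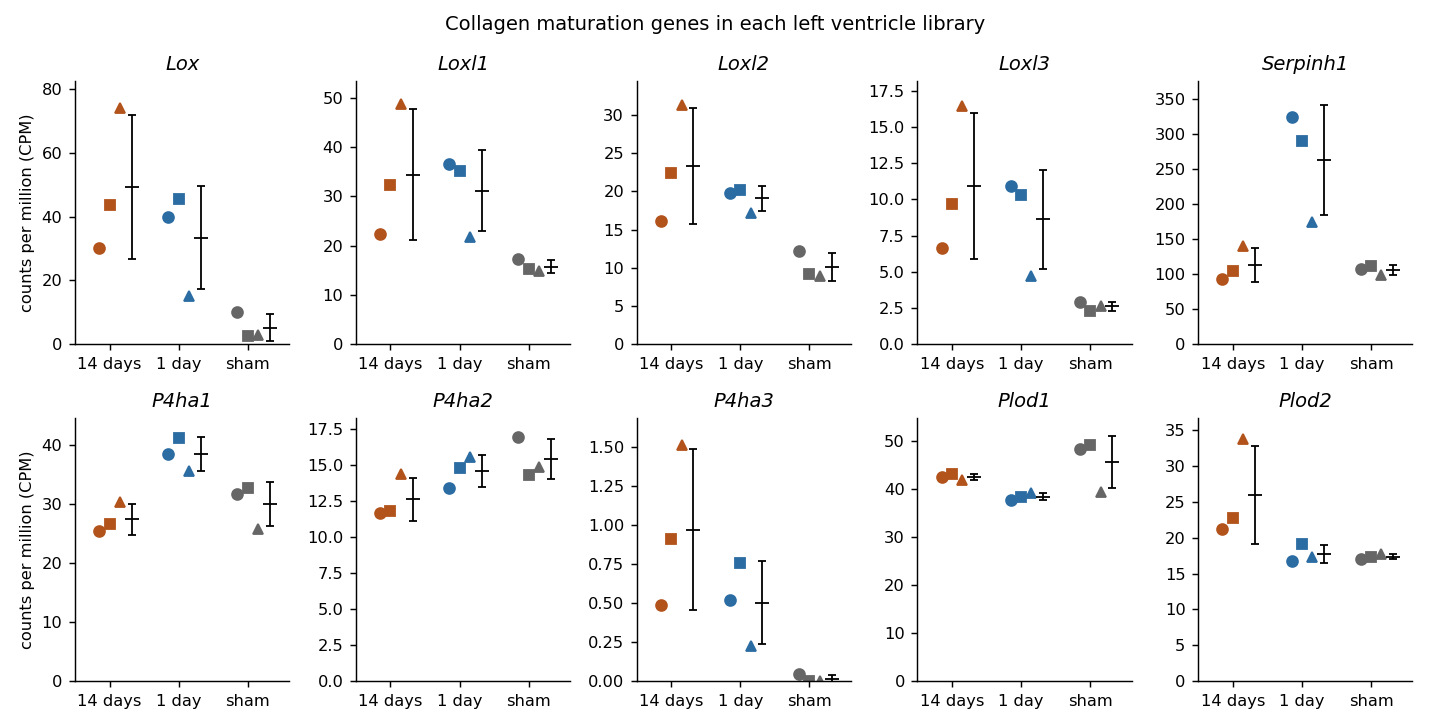
Levels in CPM (vertical axes, each starting at 0) of the 10 genes in the 14-day, 1-day and sham libraries. Each symbol is 1 library (circle, square and triangle for A, B and C, for mice 4, 5 and 6 and for sham mice 1, 2 and 3) and the black bar is the mean ± SD (n = 3). The 4 lysyl oxidases lie above sham at both times, Serpinh1 and P4ha1 have their highest level at 1 day, and Plod2 has its highest level at 14 days.

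The 4 lysyl oxidases rose at both times. Lox (ENSMUSG00000024529, chromosome 18, 52516067 to 52529867 of GRCm38, minus strand), the founding member of the family, had 30.3, 43.6 and 74.2 CPM in libraries A, B and C at 14 days. It had 39.8, 45.4 and 15.1 CPM in mice 4, 5 and 6 at 1 day, and 10.2, 2.73 and 2.75 CPM in sham mice 1, 2 and 3. No I/R library overlapped the sham range, although sham mouse 1 lay well above the other sham mice. The log2 fold over sham was 3.22 (SE 0.65, edgeR adjusted p = 0.0169) at 14 days and 2.67 (SE 0.64, edgeR adjusted p = 0.0085) at 1 day. The 14-day call ended without sham mouse 2, without library C, with total count only as scaling and with no filter on low counts, where the edgeR adjusted p ran from 0.0506 to 0.0845 and the fold stayed positive. Without sham mouse 1 the log2 fold was 4.17 at 14 days (edgeR adjusted p = 0.0145) and 3.61 at 1 day (edgeR adjusted p = 0.0022).

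Loxl3 (ENSMUSG00000000693, chromosome 6, 83034173 to 83052562), a close relative of Loxl2, had the lowest mean CPM per kilobase of the 4 lysyl oxidases in every group. Its levels were 6.61, 9.70 and 16.4 CPM at 14 days, 10.9, 10.3 and 4.70 CPM at 1 day, and 2.93, 2.33 and 2.62 CPM in sham. The log2 fold over sham was 2.05 (SE 0.41, edgeR adjusted p = 0.0136) at 14 days and 1.74 (SE 0.41, edgeR adjusted p = 0.00615) at 1 day. All I/R libraries lay above sham, with mouse 6 the lowest of them. The 14-day call ended without sham mouse 2 (edgeR adjusted p = 0.0639) and with no filter on low counts (edgeR adjusted p = 0.0552). Of its exonic bases 11.6% are shared with Htra2 on the other strand, and the strand setting of the counting is not given, so part of its count is uncertain.

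Loxl2 (ENSMUSG00000034205, chromosome 14, 69609068 to 69695834), which also crosslinks basement membrane collagen IV, had 16.2, 22.4 and 31.3 CPM at 14 days, 19.8, 20.2 and 17.2 CPM at 1 day, and 12.2, 9.13 and 8.95 CPM in sham. Its log2 fold over sham was 1.20 (SE 0.22, edgeR adjusted p = 0.00785) at 14 days and 0.92 (SE 0.22, edgeR adjusted p = 0.00523) at 1 day. The groups did not overlap sham, and the 1-day mice were closer together than the 14-day libraries. Loxl1 (ENSMUSG00000032334, chromosome 9, 58287738 to 58313186), which is known for its role in elastic fibers, had 22.3, 32.4 and 48.7 CPM at 14 days, 36.6, 35.1 and 21.8 CPM at 1 day, and 17.2, 15.3 and 14.8 CPM in sham. It rose by a log2 fold of 1.12 (SE 0.28, edgeR adjusted p = 0.0294) at 14 days and 0.99 (SE 0.28, edgeR adjusted p = 0.015) at 1 day. The 14-day call of Loxl1 was among the least stable and ended without any 1 of sham mice 1, 2 or 3 or of libraries B or C, with total count only and with no filter on low counts. The 1-day call of Loxl1 ended with no filter on low counts (edgeR adjusted p = 0.0674).

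No lysyl oxidase passed the test between 14 days and 1 day. The log2 fold at 14 days over 1 day was 0.55 (SE 0.56) for Lox, 0.14 (SE 0.27) for Loxl1, 0.28 (SE 0.21) for Loxl2 and 0.31 (SE 0.36) for Loxl3, with edgeR adjusted p from 0.273 to 0.699. The groups overlapped for each of them. With total count only, the fold turned negative for Loxl1, Loxl2 and Loxl3. Without library A, Loxl2 was called higher at 14 days (0.49, edgeR adjusted p = 0.0268).

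**Figure D2:**
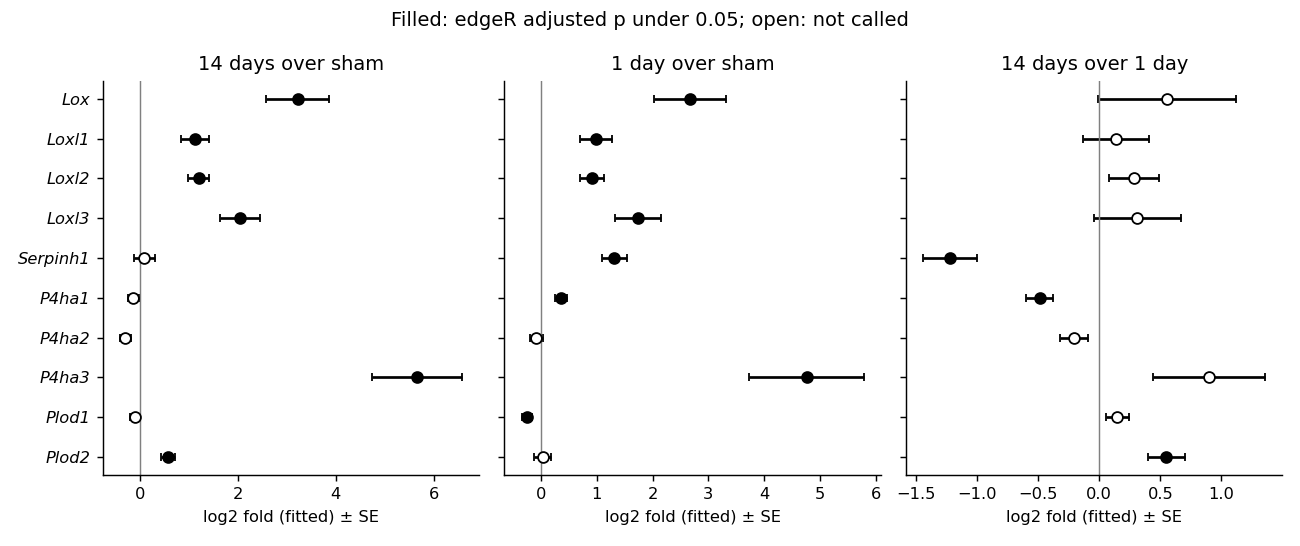
Fitted log2 folds with their SE (horizontal axes) for the 10 genes (rows) at 14 days over sham, 1 day over sham and 14 days over 1 day. Filled points have an edgeR adjusted p under 0.05. This includes P4ha3 against sham, although that gene passed the filter on low counts only through the I/R libraries. Serpinh1 has a log2 fold of 1.32 at 1 day over sham and 0.09 at 14 days over sham, and the horizontal ranges differ between the panels.

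Serpinh1 was higher at 1 day than in either of the other groups. The gene (ENSMUSG00000070436, chromosome 7, 99345376 to 99353239) had 93.7, 105 and 140.2 CPM at 14 days, 325, 290.4 and 175 CPM at 1 day, and 107, 112 and 98.6 CPM in sham. Every 1-day mouse was above every other library, while the 14-day libraries lay below, within and above the sham range. The log2 fold over sham was 1.32 (SE 0.22, edgeR adjusted p = 6.39e-04) at 1 day and 0.09 (SE 0.22, edgeR adjusted p = 0.811) at 14 days. Set directly against each other, 14 days was lower than 1 day by a log2 fold of -1.22 (SE 0.22, edgeR adjusted p = 0.00103).

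Of the prolyl 4-hydroxylase alpha subunits, P4ha1 passed a test and P4ha2 did not, and P4ha3 had nearly all of its counts in I/R libraries. P4ha1 (ENSMUSG00000019916, chromosome 10, 59323296 to 59373304), the main alpha subunit in most cells, had 25.4, 26.6 and 30.4 CPM at 14 days, 38.6, 41.3 and 35.6 CPM at 1 day, and 31.7, 32.7 and 25.8 CPM in sham. It was highest in the 1-day mice, which overlapped neither other group. The rise over sham at 1 day was small, with a log2 fold of 0.35 (SE 0.11, edgeR adjusted p = 0.0176), and the call ended without sham mouse 3, mouse 4 or mouse 5. At 14 days P4ha1 was below 1 day by a log2 fold of -0.49 (SE 0.11, edgeR adjusted p = 0.00346) and its log2 fold over sham was -0.13 (SE 0.11, edgeR adjusted p = 0.445).

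P4ha2 (ENSMUSG00000018906, chromosome 11, 54100095 to 54131665), the second alpha subunit, passed no test with TMM scaling. Its levels were 11.7, 11.8 and 14.4 CPM at 14 days, 13.4, 14.8 and 15.5 CPM at 1 day, and 17.0, 14.3 and 14.9 CPM in sham. The groups overlapped in all 3 comparisons. Its log2 fold over sham was -0.29 (SE 0.11, edgeR adjusted p = 0.108) at 14 days and -0.08 (SE 0.11, edgeR adjusted p = 0.551) at 1 day, and the 1-day value turned to 0.39 with total count only. Under that scaling P4ha2 was called lower at 14 days than at 1 day (-0.57, edgeR adjusted p = 0.0212).

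P4ha3 (ENSMUSG00000051048, chromosome 7, 100285520 to 100319699), the third alpha subunit, was almost absent in sham. It had 14, 31 and 37 counts in libraries A, B and C at 14 days, 23, 19 and 5 counts in mice 4, 5 and 6 at 1 day, and 1, 0 and 0 counts in sham mice 1, 2 and 3. In CPM, these were 0.485, 0.909 and 1.51 CPM at 14 days, 0.520, 0.755 and 0.224 CPM at 1 day, and 0.0419 CPM in the sham library with a count. The ratio to sham over pooled counts was 64.9 at 14 days (95% counting interval 11.3 to 2594) and 35.5 at 1 day (95% counting interval 6.06 to 1431), intervals that cover counting error only. Since P4ha3 entered the tested genes through the I/R libraries alone, no test against sham is given for it. Between the times the log2 fold was 0.90 (SE 0.46, edgeR adjusted p = 0.12), with overlapping groups.

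The lysyl hydroxylases had smaller log2 folds, and each passed the test at a different time. Plod2 (ENSMUSG00000032374, chromosome 9, 92542223 to 92608428), the telopeptide lysyl hydroxylase, had 21.2, 22.8 and 33.8 CPM at 14 days, 16.7, 19.1 and 17.3 CPM at 1 day, and 17.0, 17.3 and 17.8 CPM in sham. The 14-day libraries lay above all others, while 1-day and sham libraries overlapped. Its log2 fold was 0.58 over sham (SE 0.15, edgeR adjusted p = 0.0284) and 0.55 over 1 day (SE 0.15, edgeR adjusted p = 0.0105), against 0.03 for 1 day over sham (SE 0.15, edgeR adjusted p = 0.886). The 14-day call against sham ended without any 1 of the 3 sham mice, without library C and with total count only, and the call against 1 day ended with total count only (0.19, edgeR adjusted p = 0.47). Under that scaling Plod2 was called higher at 1 day than in sham (0.51, edgeR adjusted p = 0.0478). Plod2 shares 6.42% of its exonic bases with Gm38391 on the other strand.

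Plod1 (ENSMUSG00000019055, chromosome 4, 147909753 to 147936767), a lysyl hydroxylase of the helical part, had 42.5, 43.1 and 41.8 CPM at 14 days, 37.6, 38.3 and 39.1 CPM at 1 day, and 48.3, 49.1 and 39.4 CPM in sham. All 1-day mice were below all sham mice, by a narrow margin beside sham mouse 3. The log2 fold of 1 day over sham was -0.25 (SE 0.09, edgeR adjusted p = 0.0394). That call ended in 9 of 19 alternatives, and with total count only, a scaling that moves the median of all genes by 0.48, the fold turned to 0.22. At 14 days the log2 fold over sham was -0.10 (SE 0.09, edgeR adjusted p = 0.487).

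Promoter sequences from RefSeq (GRCm38.p6) were available for 5 of the 10 genes, namely Plod1, Serpinh1, P4ha1, P4ha2 and P4ha3. Printed 5′ to 3′ on the gene's strand are the 250 bases before the RefSeq start of Serpinh1, P4ha1 and P4ha2. Serpinh1 and P4ha1 were higher at 1 day, and P4ha2 passed no test with TMM scaling. Capitals mark matches to ACGTG and GCGTG, the core letters bound by hypoxia-inducible factors, and to GAANNTTC and TTCNNGAA, forms of the heat shock element, on either strand.
Serpinh1 (chr7:99353240-99353489, minus strand): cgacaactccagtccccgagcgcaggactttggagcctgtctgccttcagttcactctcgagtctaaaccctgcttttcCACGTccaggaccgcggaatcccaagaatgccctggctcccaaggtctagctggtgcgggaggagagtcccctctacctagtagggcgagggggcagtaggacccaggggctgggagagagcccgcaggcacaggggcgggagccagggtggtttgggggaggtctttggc
P4ha1 (chr10:59323046-59323295, plus strand): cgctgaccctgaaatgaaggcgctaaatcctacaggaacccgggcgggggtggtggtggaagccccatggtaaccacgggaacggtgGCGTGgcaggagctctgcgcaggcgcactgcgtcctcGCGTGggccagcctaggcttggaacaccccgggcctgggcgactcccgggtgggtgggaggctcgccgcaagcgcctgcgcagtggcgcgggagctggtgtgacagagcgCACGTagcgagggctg
P4ha2 (chr11:54100674-54100923, plus strand): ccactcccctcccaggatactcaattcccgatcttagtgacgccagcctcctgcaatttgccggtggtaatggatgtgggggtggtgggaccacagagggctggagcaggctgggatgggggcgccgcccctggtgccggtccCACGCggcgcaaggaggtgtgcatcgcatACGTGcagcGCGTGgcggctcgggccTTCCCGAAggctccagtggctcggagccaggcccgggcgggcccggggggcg
Serpinh1 holds 1 ACGTG, which begins 171 bases before the start on the minus strand of this window. P4ha1 holds 1 ACGTG at 16 bases and 2 GCGTG at 163 and 126 bases before its start. P4ha2 holds 1 ACGTG at 78 bases, 2 GCGTG at 107 and 69 bases and 1 TTCNNGAA at 52 bases. Its window (54100674 to 54100923) lies inside the gene as placed above, which begins at 54100095. The P4ha2 distances therefore refer to a RefSeq start further along the gene, not to that beginning. None of these matches overlap. Plod1 holds 1 GCGTG at 20 bases and P4ha3 none of the 4 motifs. Among 32851 promoter windows of this length, 16.6% hold ACGTG, 28.2% GCGTG, 6.69% GAANNTTC and 7.17% TTCNNGAA. The matches are letters in a window and do not show that a factor binds there.

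Levels of different genes were compared per kilobase (kb) of exonic length. Serpinh1 was the highest of the 10 genes in each group, at 46.2 ± 9.94 CPM per kb at 14 days, 108 ± 32.3 at 1 day and 43.3 ± 2.73 in sham (SD, n = 3 each). In sham the next were P4ha1 (7.30 ± 0.912 CPM per kb), Plod1 (6.74 ± 0.798) and Loxl1 (4.78 ± 0.385). In sham mice 1, 2 and 3, P4ha1 had 7.70, 7.95 and 6.26 CPM per kb and Plod1 had 7.14, 7.25 and 5.82. P4ha1 was thus above Plod1 by a small margin in each sham library, a difference that was not tested. At 14 days the next after Serpinh1 were Loxl1 (10.4 ± 4.04 CPM per kb) and Lox (10.3 ± 4.71), before P4ha1 (6.68 ± 0.636). Loxl1 and Lox lay above P4ha1 in each 14-day library, but only narrowly in library A (6.76 and 6.35 against 6.18). This was not tested either. Lox in sham had 1.09 ± 0.898 CPM per kb and only Loxl3 and P4ha3 had lower levels.

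Lox made up a greater share of its family in every I/R library than in any sham library. Of the summed CPM per kb of Lox, Loxl1, Loxl2, Loxl3 and Loxl4, Lox made up 36.9% ± 1.71 at 14 days, 29.1% ± 6.99 at 1 day and 11.9% ± 7.37 in sham (SD, n = 3 each). Loxl1 made up 37.9% ± 0.879 at 14 days, 41.8% ± 2.87 at 1 day and 57.4% ± 6.36 in sham. In single libraries the share of Lox was 35.9% to 38.8% at 14 days, 21.3% to 34.9% at 1 day and 7.59% to 20.4% in sham, so the groups did not overlap, with mouse 6 and sham mouse 1 the closest. The summed level of the family was 27.7 ± 11.3 CPM per kb at 14 days, 23.0 ± 7.11 at 1 day and 8.45 ± 1.70 in sham. Loxl4, a family member outside the 10 genes, made up 0.895% ± 0.0604 at 14 days, 4.89% ± 0.783 at 1 day and 1.68% ± 0.0429 in sham.

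Among lysyl hydroxylases, Plod2 made up 34.3% ± 4.68 at 14 days, 22.7% ± 2.03 at 1 day and 26.3% ± 2.501 in sham of the summed CPM per kb of Plod1, Plod2 and Plod3 (SD, n = 3 each). Plod3, which also carries glycosyltransferase activity, made up 19.9% ± 1.33 at 14 days, 38.2% ± 4.93 at 1 day and 18.9% ± 0.225 in sham. Among alpha subunits, P4ha1 kept the greatest share in each group, with 74.2% ± 1.40 at 14 days, 78.9% ± 1.59 at 1 day and 74.6% ± 2.68 in sham. P4ha3 made up 3.33% ± 1.43 at 14 days, 1.32% ± 0.639 at 1 day and 0.0427% ± 0.0739 in sham. These shares are descriptions without a test.

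**Figure D3:**
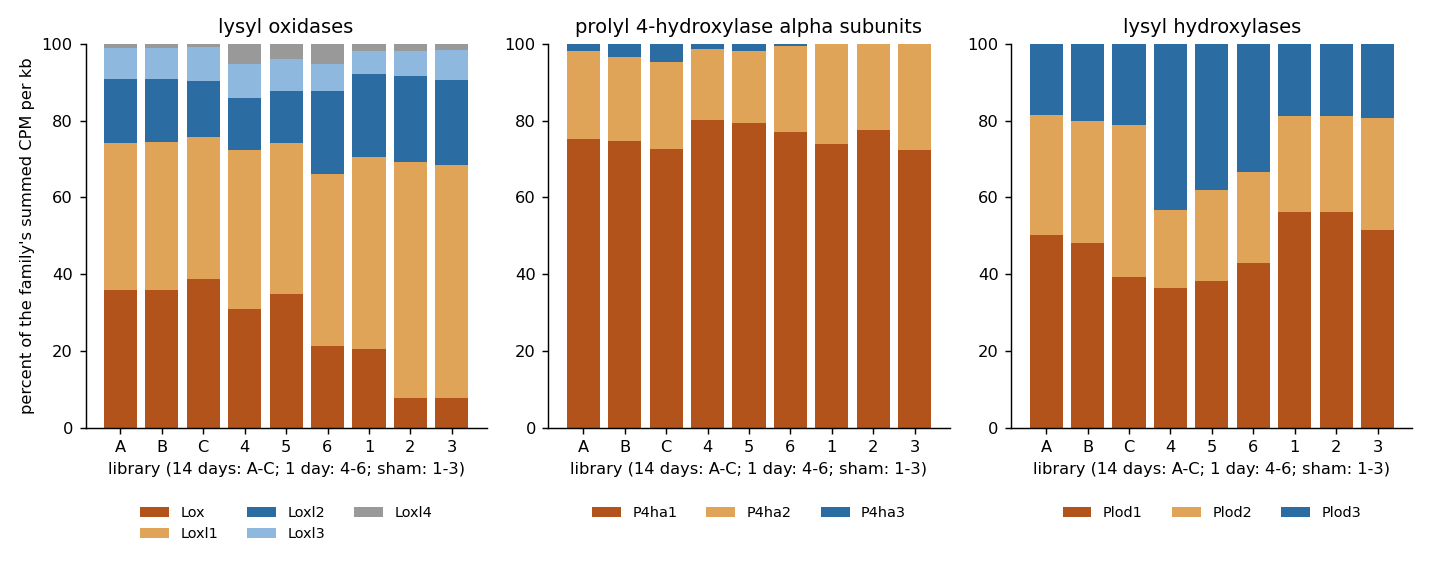
Share of each gene in the summed CPM per kb of its family (vertical axes, percent) for each library, with libraries A to C of 14 days at the left, mice 4 to 6 of 1 day in the middle and sham mice 1 to 3 at the right of each panel. Lox takes 35.9% to 38.8% of the lysyl oxidase family at 14 days and 7.59% to 20.4% in sham, and Plod3 takes its greatest share in the 1-day mice.

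The enzymes were then set beside the collagen messages whose products they modify, as CPM per 1000 summed CPM of Col1a1 and Col3a1. This sum was 1007, 1615 and 2497 CPM in libraries A, B and C at 14 days, 536, 609 and 388 CPM in mice 4, 5 and 6 at 1 day, and 489, 179 and 229 CPM in sham mice 1, 2 and 3. Sham mouse 1, which was highest for Lox, was also highest for these collagens among sham mice. Relative to collagen, 8 of the 10 genes had a lower mean at 14 days than in sham, all except Lox and P4ha3. The mean of the collagen sum was 1707 CPM at 14 days and 299 CPM in sham. A gene with unchanged CPM therefore also has a lower ratio at 14 days, and the share over all genes was not computed. The lower means thus do not set these genes apart from others. Serpinh1 had 93.0, 64.8 and 56.1 CPM per 1000 at 14 days, 607, 477 and 451 at 1 day, and 219, 625 and 430.4 in sham. Its sham values spanned those of the 1-day mice, while all 14-day values were lower than both. Lox had 30.1, 27.0 and 29.7 CPM per 1000 at 14 days, 74.4, 74.6 and 38.8 at 1 day, and 20.8, 15.3 and 12.0 in sham. It was therefore higher relative to collagen in each I/R library than in any sham library, and highest at 1 day. Plod2 had 21.1, 14.1 and 13.5 CPM per 1000 at 14 days, 31.2, 31.4 and 44.6 at 1 day, and 34.9, 96.5 and 77.5 in sham. Although its own CPM rose at 14 days, its ratio to collagen was lower there than in all other libraries. The 10 ratios share 1 denominator and were not tested.

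**Figure D4:**
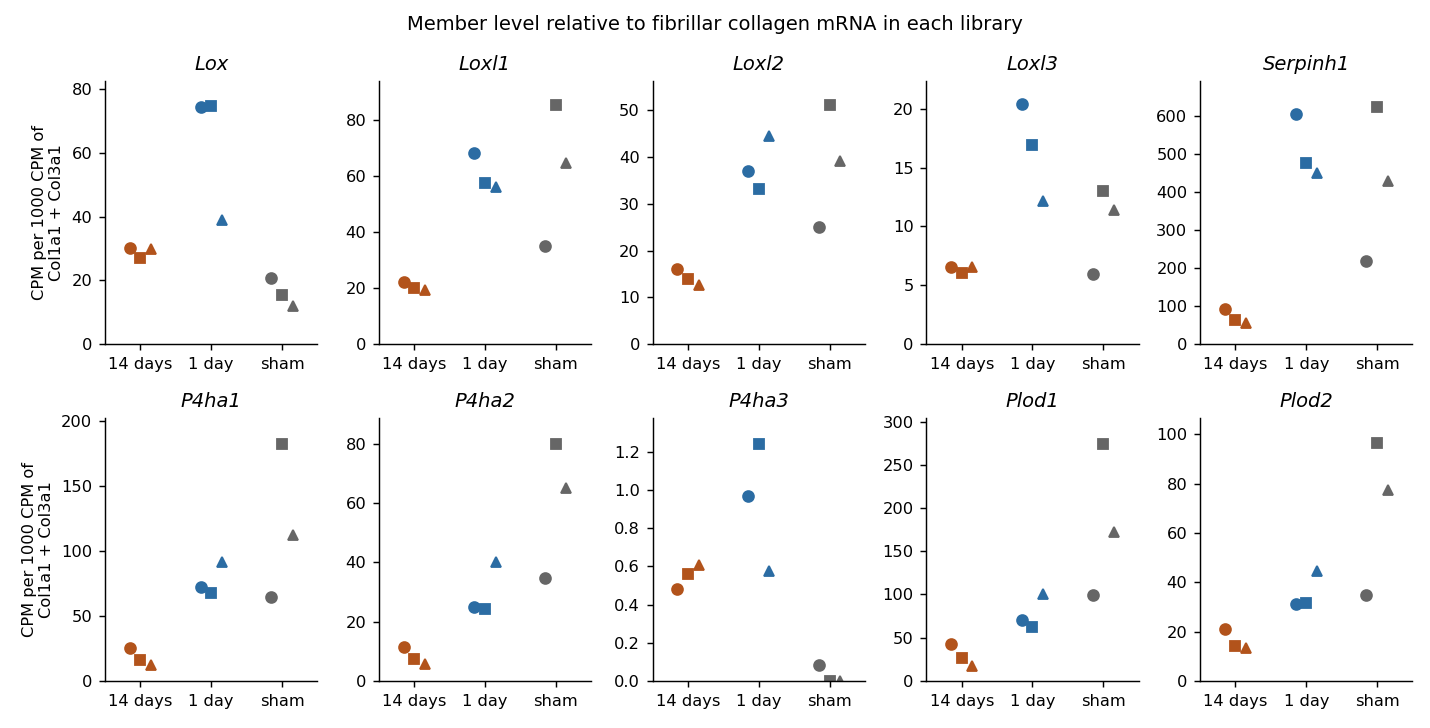
CPM of each of the 10 genes per 1000 summed CPM of Col1a1 and Col3a1 (vertical axes, each starting at 0) in the 14-day, 1-day and sham libraries, with 1 symbol per library as circle, square and triangle for A, B and C, mice 4, 5 and 6 and sham mice 1, 2 and 3. Lox and P4ha3 lie above sham at both times, and the other 8 genes have lower means at 14 days than in sham. A gene of unchanged CPM would also be lower, since the collagen sum is higher at 14 days.

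Marker genes of cell types moved beside these values. For the counts below, 14.4% of all tested genes were called at 14 days over sham and 54.2% at 1 day over sham. Of 6 fibroblast markers, which include Col1a1, 5 rose at 14 days, and 2 rose and 2 fell at 1 day. Their summed level was 720.1 to 1476 CPM at 14 days, 316 to 360.4 CPM at 1 day and 335 to 426 CPM in sham, so that the 1-day and sham ranges overlapped. In libraries A, B and C it was 720.1, 1011 and 1476 CPM, the same order as for Lox. That order was not particular to fibroblast markers. Macrophage and monocyte markers (165, 260 and 319 CPM) shared it. So did neutrophil and chondrocyte markers, but at low sums of 1.42 to 2.90 CPM and 3.53 to 6.99 CPM. The chondrocyte sum was nearly all Sox9 (mean 4.84 CPM at 14 days), with at most 0.165 CPM as the mean of any other gene of that list. Cardiomyocyte markers (18267, 14973 and 13352 CPM) and smooth muscle and pericyte markers had the reverse order, and the remaining lists had neither. Of 6 macrophage and monocyte markers 5 rose at 14 days and 4 at 1 day, with summed levels of 165 to 319 CPM at 14 days, 203 to 235 CPM at 1 day and 108 to 120.0 CPM in sham. Of 5 neutrophil markers 0 were called at 14 days by edgeR, with 0 at an unadjusted p under 0.05, and 5 rose at 1 day, with 1.42 to 2.90 CPM at 14 days, 16.1 to 54.0 CPM at 1 day and 1.21 to 4.03 CPM in sham, mouse 6 being the lowest of the 1-day mice. Of 6 cardiomyocyte markers 5 fell at 1 day and 0 were called at 14 days by edgeR, with 1 lower at an unadjusted p under 0.05. Of 5 endothelial markers 2 fell at 1 day, with 309 to 393 CPM at 14 days, 280.3 to 286 CPM at 1 day and 374 to 396 CPM in sham. Of 5 smooth muscle and pericyte markers 1 rose and 1 fell at 14 days, and 2 rose and 2 fell at 1 day. Of 3 tested epicardial markers 1 fell at each time, and the 1 tested chondrocyte marker, Sox9, rose at 14 days. Of 3 tested genes listed as skeletal muscle markers, 1 rose (Acta1) and 1 fell (Ckm) at 14 days. At 1 day 2 rose (Acta1 and Tnnt3) and 1 fell (Ckm). Myh4 of that list was too low to test, with means of 0.095 CPM at 14 days, 0.058 CPM at 1 day and 0.114 CPM in sham. Whether skeletal muscle was present was not tested. The part of these cell types in the results was not tested.

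Partner enzymes in the ER were described next. Of 12 genes for ER partners of procollagen, 3 rose at 14 days, and 8 rose and 1 fell at 1 day, with median log2 folds of 0.39 and 0.80, where 14.4% of all tested genes were called at 14 days and 54.2% at 1 day. P4hb, the beta subunit of prolyl 4-hydroxylase, had 88.3 CPM at 14 days, 194 CPM at 1 day and 68.8 CPM in sham, a log2 fold of 1.498 at 1 day over sham (SE 0.22, edgeR adjusted p = 2.99e-04) and -1.14 at 14 days over 1 day (SE 0.21, edgeR adjusted p = 0.00136). The cyclophilin Ppib rose at both times, with log2 folds of 0.69 (SE 0.18) at 14 days and 0.97 (SE 0.18) at 1 day. The collagen galactosyltransferase Colgalt1 rose at 1 day (0.70, SE 0.14), whereas its relative Colgalt2 fell at 1 day (-1.16, SE 0.15) and rose at 14 days (0.46, SE 0.14). P3h3, of the prolyl 3-hydroxylase family, was the third that rose at 14 days (1.28, SE 0.21), and it also rose at 1 day (0.84, SE 0.21). Plod3 was lower at 14 days than at 1 day (-1.02, SE 0.15). Of the exonic bases of Ppib 25.0% are shared with Snx22, and of those of Plod3 11.9% with other genes.

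Of 14 genes of procollagen export and propeptide removal, 13 were tested, of which 5 rose at 14 days, and 6 rose and 2 fell at 1 day (median log2 folds 0.18 and 0.32). Beside them, 14.4% of all tested genes were called at 14 days and 54.2% at 1 day, and the 1-day count of this list lay near that share. The procollagen N-proteinase Adamts2 rose more at 14 days (2.09, SE 0.28) than at 1 day (0.78, SE 0.28), and the log2 fold between the times was 1.31 (SE 0.27, edgeR adjusted p = 0.00332). The C-proteinase Bmp1, which also activates Lox, rose at 14 days (0.94, SE 0.26) and at 1 day (1.02, SE 0.26), as did the coat protein Sec24d at 14 days (0.43, SE 0.10) and at 1 day (0.62, SE 0.10). The C-proteinase enhancers Pcolce (0.92, SE 0.18) and Pcolce2 (1.07, SE 0.20) rose at 14 days. The transcription factor Creb3l1 was lower at 14 days than at 1 day (-1.72, SE 0.36), and the export factor Mia2 fell at 1 day (-0.25, SE 0.10).

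Of 10 fibrillar collagen and elastin genes 9 were tested, of which 7 rose and 1 fell at 14 days and 3 rose at 1 day (median log2 folds 2.12 and 0.80). The shares called over all tested genes were 14.4% at 14 days and 54.2% at 1 day. Col3a1 had 1521 CPM at 14 days, 405 CPM at 1 day and 240.6 CPM in sham, with a log2 fold over sham of 2.66 (SE 0.42, edgeR adjusted p = 0.00544) at 14 days and 0.75 (SE 0.40, edgeR adjusted p = 0.138) at 1 day. Col1a1 (1.67, SE 0.45) and Col1a2 (2.12, SE 0.40) rose at 14 days. Of the collagen V chains, Col5a1 rose at 14 days (1.21, SE 0.31) and at 1 day (1.08, SE 0.31), as did Col5a2 at 14 days (2.19, SE 0.38) and at 1 day (1.43, SE 0.37). Col5a3 was -0.05 (SE 0.18, edgeR adjusted p = 0.882) at 14 days and rose at 1 day (0.85, SE 0.18). Col11a2 (-1.60, SE 0.26) fell at 14 days. Eln, which encodes elastin, was higher at 14 days than at 1 day (3.54, SE 0.40).

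Of 8 genes for other crosslinkers and scaffolds of lysyl oxidases 6 rose at 14 days, and 6 rose and 1 fell at 1 day (median log2 folds 1.70 and 1.54). Among all tested genes 14.4% were called at 14 days and 54.2% at 1 day. The transglutaminase Tgm2 had 87.5 CPM at 14 days, 428 CPM at 1 day and 97.9 CPM in sham, with a log2 fold of 2.13 at 1 day over sham (SE 0.21, edgeR adjusted p = 3.86e-05) and -2.29 at 14 days over 1 day (SE 0.22, edgeR adjusted p = 2.42e-05). Loxl4, added here as the remaining family member, rose at 1 day (2.95, SE 0.31) and its 14-day value over sham was 0.74 (SE 0.36, edgeR adjusted p = 0.19). The matrix proteins Postn, Sparc and Fn1 rose at both times. Postn rose at 14 days (3.49, SE 0.54) and at 1 day (1.39, SE 0.50). Sparc rose at 14 days (1.71, SE 0.21) and at 1 day (0.76, SE 0.21), and Fn1 at 14 days (1.91, SE 0.42) and at 1 day (2.15, SE 0.43). Fbln5, an elastic fiber protein, rose at 14 days (1.69, SE 0.22) and fell at 1 day (-1.01, SE 0.24). Of 5 cofactor genes 4 were tested. The copper pump Atp7a, which supplies secreted lysyl oxidases, rose at 14 days (0.47, SE 0.12) and at 1 day (0.51, SE 0.12), the ascorbate transporter Slc23a2 rose at 1 day (0.52, SE 0.09) and the copper importer Slc31a1 fell at 1 day (-0.37, SE 0.11). The copper chaperone Atox1 was higher at 14 days than at 1 day (0.58, SE 0.10). Of the exonic bases of Tgm2 21.8% are shared with other genes.

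General chaperones and hypoxia genes were set beside Serpinh1 and P4ha1. Of 15 ER and heat shock chaperone genes 2 fell at 14 days, and 11 rose and 1 fell at 1 day (median log2 folds -0.05 and 1.44), while 13 were lower at 14 days than at 1 day. Shares called over all tested genes were 14.4% at 14 days over sham, 54.2% at 1 day over sham and 51.9% between the times. Hspa5 (1.58, SE 0.20), Hsp90b1 (1.70, SE 0.16) and Calr (1.37, SE 0.16), all resident in the ER, rose at 1 day, and mitochondrial Hspe1 fell (-0.27, SE 0.10). Hspd1 (-0.52, SE 0.11) and Hsph1 (-0.50, SE 0.12) fell at 14 days. Of 15 hypoxia-inducible factor target genes 14 were tested, of which 2 rose at 14 days, and 4 rose and 4 fell at 1 day (median log2 folds 0.01 and -0.13). At both times these counts over sham lay near the share of all tested genes. The glucose transporter Slc2a1 (1.89, SE 0.13), Pfkfb3 (1.18, SE 0.17), Pgk1 (0.62, SE 0.13) and Eno1 (0.48, SE 0.11) rose at 1 day, and Vegfa (-1.33, SE 0.22), Egln3 (-1.01, SE 0.18), Bnip3 (-0.86, SE 0.32) and Aldoa (-0.53, SE 0.16) fell. Ndrg1 (0.44, SE 0.10) and Pfkfb3 (0.77, SE 0.17) rose at 14 days. Between 14 days and 1 day 5 hypoxia genes were higher and 5 lower, with Vegfa (0.64, SE 0.22), Egln3 (0.55, SE 0.18) and Pdk1 (0.37, SE 0.13) higher and Hk2 (-0.54, SE 0.12) lower at 14 days. At 14 days over sham, Vegfa was -0.70 (SE 0.22, edgeR adjusted p = 0.0578) and Egln3 was -0.45 (SE 0.18, edgeR adjusted p = 0.111). The 1-day value of Serpinh1, 1.32, lay near the chaperone median, and that of P4ha1 was 0.35.

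**Figure D5:**
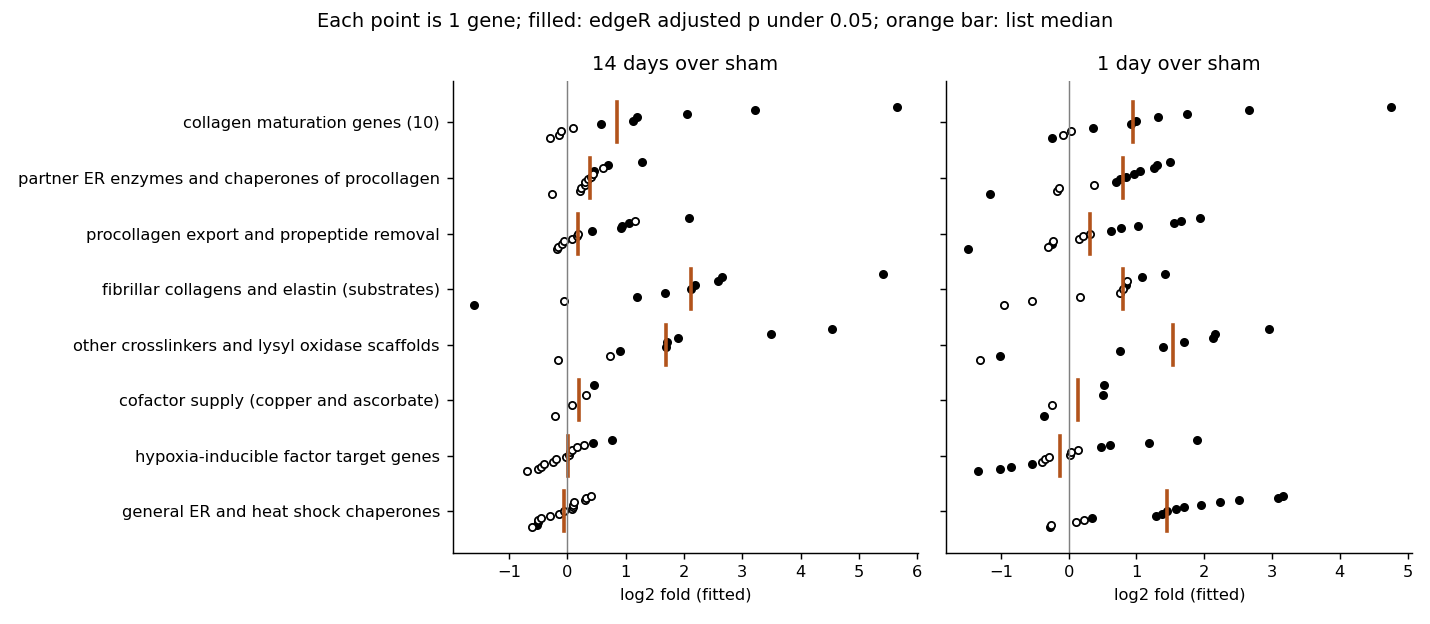
Fitted log2 folds (horizontal axes) of every tested gene of each list (rows) at 14 days over sham (left) and 1 day over sham (right), with filled points at an edgeR adjusted p under 0.05 and an orange bar at the list median. The chaperone list has a median of -0.05 at 14 days and 1.44 at 1 day, and the substrate list has 2.12 at 14 days and 0.80 at 1 day.

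Genes most like each of the 10 were ranked by the root-mean-square difference of mean-centred log2 CPM over the 9 libraries, among 7854 protein-coding genes with a mean of at least 5 CPM. The nearest to Lox was Col12a1, a fibril-associated collagen chain, at 0.42, and then Nppa, a natriuretic peptide gene, at 0.68. Loxl1 was nearest to Bmp1 at 0.11 and then Adcy7 at 0.14. Loxl2 lay nearest to Dap at 0.10 and Sulf1 at 0.13, and Loxl3 to Col5a2 at 0.22 and Kdelr3 at 0.24. For Serpinh1 they were Trim16 at 0.06 and Fes at 0.12, for P4ha1 Ifrd1 and Zc3h15 at 0.08 each, and for P4ha2 Plekha8 and Dctn3 at 0.10 each. P4ha3 had Col12a1 at 0.24 and Thbs4 at 0.49, Plod1 had Tbc1d5 and Swi5 at 0.06 each, and Plod2 had Rnf138 at 0.09 and Skil at 0.10. A pseudocount of 2 was added before taking logs. With 1, 0 and 0 counts in sham, the sham values of P4ha3 come mostly from it, so the distances of P4ha3 are uncertain.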

How the data were processed

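RNA-seq counts per gene were analysed in 9 left ventricle libraries. The authors deposited 1 table of whole-number counts for Ensembl genes, with no normalization. Libraries came from a stranded total RNA kit with ribosomal RNA depletion, per the labels' protocols. Reads were aligned with STAR 2.7.1a to GRCm38 (mm10), per the submitters' processing notes. For the counting program, the annotation release, the strand setting and the treatment of reads that match several genes, the entry is: not given in the sources used here. Without a known strand setting, bases shared with a gene on the other strand cannot be assigned. Of the 38293 gene IDs, 36345 matched GENCODE M21, which gave names, positions and exonic lengths.

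Genes were filtered with filterByExpr, which left 14124, and counts were scaled by TMM. All 3 groups were fitted together with edgeR 4.0.16 in R 4.3.3 (glmQLFit, glmQLFTest, no covariates), so that the comparisons share 1 estimate of the spread. P-values were adjusted over all tested genes and the threshold was 0.05. The titles name separate mice. Replicates of a group differed by more than sampling noise (chi-square per degree of freedom 6.90 to 89.7), so none was counted as a duplicate. The mitochondrial share of counts was 52.0% to 71.8%. Counting intervals are exact at 95% and cover counting error only. Ratios and shares used CPM with no test. The 8 gene lists and 10 marker lists are described by counts and medians. From each pathway list and comparison, all called genes were open to naming where 5 or fewer were called, and otherwise the 3 most abundant (by mean CPM) of the more frequent direction plus 1 of the opposite direction. Loxl4 and Plod3 were also named as the remaining members of their families, and Bnip3, Pgk1 and the other time of named genes were added, with their values known. For likeness, the 2 protein-coding genes nearest to each of the 10 were named. The 10 genes and the lists were chosen with earlier results of these data known. The fits were tested on simulated counts first. Alternatives were DESeq2 1.42.0, limma-voom (limma 3.58.1), other scalings and filters, a test against a 2-fold change, the 2 groups alone and leaving out each library.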

Additional observations from a re-analysis of the deposited data

Results flagged for a closer look

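For 3 of the 10 genes the change from sham differed between the times, by the edgeR test of 14 days against 1 day, which is the difference between both changes since the sham libraries cancel. In that comparison 51.9% of 14124 tested genes were called, a greater share than among the 10. For Serpinh1 the 14-day change from sham minus the 1-day change was -1.22 (log2), for P4ha1 it was -0.49 and for Plod2 it was 0.55, the only one of the 3 in which the 14-day change was the higher. The Plod2 difference did not pass the test when libraries were scaled by total count only, and none of the 3 passed a test against a 2-fold change. No explanation was tested.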

How the results depend on the processing

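No paired analysis was possible because the groups share no replicate numbers, and the 14-day columns carry none. Under 19 alternatives, 502 of 566 log2 folds of the 10 genes kept their direction and their side of the threshold, 45 lost the call, 4 gained one and 15 reversed. The number of the 10 genes called at 14 days over sham, 6, was 3 with total count only, 1 against a 2-fold change (P4ha3), 3 with no filter on low counts, and 2 to 6 when 1 library was left out (2 without sham mouse 2, 3 without library C). Calls over all genes also dropped there, to 314 higher and 164 lower without sham mouse 2, and to 498 and 277 without library C. At 1 day over sham, 8 were called, 1 against a 2-fold change (P4ha3), 6 with no filter (Loxl1 and Plod1 lost), and 6 to 8 with 1 library left out. All these counts against sham include P4ha3, which passed the filter only through the I/R libraries. Its calls, among them those against a 2-fold change, therefore carry no weight. At 14 days over 1 day, 3 were called, 0 against a 2-fold change (edgeR), and 3 to 5 with 1 library left out (5 without library A). With total count only the all-gene median shifted by 0.48 at 1 day over sham and by -0.39 at 14 days over 1 day, and all tested genes split into 1066 higher and 5469 lower at 14 days over 1 day (3547 and 3788 with TMM), 720 and 112 at 14 days over sham (1236 and 797) and 6860 and 1057 at 1 day over sham (4153 and 3496).

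Reversed at 14 days over 1 day with total count only were Loxl1 (-0.24), Loxl2 (-0.078), Loxl3 (-0.066) and Plod1 (-0.23). With 1 library left out, Loxl1 ran from -0.17 (without C) to 0.37 and was -0.06 without mouse 6, and Loxl3 ran from -0.070 (without C) to 0.57. At 14 days over sham Serpinh1 ran from -0.11 (without C) to 0.21. At 1 day over sham, Plod1 (0.22) and P4ha2 (0.39) reversed with total count only. Plod2 reversed there with DESeq2 (-0.0104), with DESeq2 size factors in edgeR (-0.0108) and with both groups alone (-0.0056), and with 1 library left out it ran from -0.027 (without mouse 5) to 0.043, with -0.0090 without library C. None of these reversals passed the threshold, and the cause was not tested. P4ha3 has no value with a minimum of 1 CPM in 3 libraries, nor at 1 day over sham with both groups alone, since it did not pass those filters. With 5 collagen chains as denominator, 25 of 27 ratio values moved by less than the replicate spread, and Loxl1 (-1.30) and Loxl2 (-1.17) at 14 days minus 1 day (log2) moved by more. With 3 libraries a group, differences smaller than the spread between libraries may go undetected, and the P4ha3 values rest on 1 to 37 counts in the libraries that have any.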
